A study of Mus musculus with 2 samples.

Results

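The 10 genes described here encode RUNX1, RUNX2 and RUNX3, their shared partner CBFB, and 6 other transcription factors of blood progenitors, MYB, HHEX, MEIS1, CEBPA, IKZF1 and MECOM. They were taken by name from a list that uses no threshold on their level, and undetected genes were kept, so that all 10 of 43346 Ensembl genes in the tables are accounted for. Paired-end RNA-seq of polyA RNA was run on G1E-ER4, an immortalized erythroid cell line of the mouse; the labels give a male, postnatal source of age 0 day. The line derives from Gata1-deficient G1E cells and carries a GATA1 protein joined to part of an estrogen receptor, which estradiol activates; per the labels Gata1 is restored and differentiation was induced with estradiol, at a dose and duration that the labels do not state. Both libraries belong to this 1 group, and no uninduced or Gata1-null library was analysed here, so no level can be read as a response to estradiol or to GATA1. The labels number the libraries as biological replicates 1 and 2, but 1 biosample record is named for both, and p-values between them hold counting error alone, so the spread seen here may be technical. Estimated counts totalled 68901065 for replicate 1 and 51923117 for replicate 2. Bulk RNA cannot tell fewer cells expressing a gene from less RNA per cell.

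RUNX proteins bind DNA through the Runt domain, and CBFB, which does not bind DNA itself, strengthens that binding. RUNX1 is needed for the first blood stem cells of the embryo and later for megakaryocytes and lymphocytes, whereas RUNX2 is known for bone and RUNX3 for T cells and neurons. MYB maintains progenitor proliferation and falls as erythroid cells mature, MEIS1 acts with PBX and HOX proteins in stem cells and megakaryocytes, and CEBPA drives granulocyte fate. IKZF1 (Ikaros) is a zinc finger factor of lymphoid and erythroid cells, HHEX is a homeodomain repressor of blood and endothelial precursors, and MECOM (EVI1) maintains stem cells.

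Runx1 is read from a distal and a proximal promoter, whose transcripts encode proteins with different first residues, and the sequences are shown because the results on Runx1 turn on which start is used. The first 30 coding bases of the model from the distal start (Runx1-201) and of the main model from the proximal start (Runx1-203) follow from GENCODE M21, with the start codon in capitals.
Runx1-201: ATGgcttcagacagcatttttgagtcattt
Runx1-203: ATGcgtatccccgtagatgccagcacgagc
Runx1-202, the third coding model with a full reading frame, begins at the proximal promoter with the same 30 bases as Runx1-203. The distal promoter (RefSeq, GRCm38.p6, chr16:92826025-92826324, minus strand) and the proximal promoter (chr16:92697280-92697579, minus strand) run from 250 bases before to 50 after the annotated start. Capitals mark matches to the RUNX motif TGTGGT on either strand.
Runx1 distal: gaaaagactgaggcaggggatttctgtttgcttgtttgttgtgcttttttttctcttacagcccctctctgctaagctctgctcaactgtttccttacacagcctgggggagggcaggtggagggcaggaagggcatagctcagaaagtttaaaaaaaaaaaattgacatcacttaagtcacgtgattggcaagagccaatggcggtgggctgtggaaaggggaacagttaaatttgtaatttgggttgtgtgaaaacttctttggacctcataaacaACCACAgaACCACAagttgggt
Runx1 proximal: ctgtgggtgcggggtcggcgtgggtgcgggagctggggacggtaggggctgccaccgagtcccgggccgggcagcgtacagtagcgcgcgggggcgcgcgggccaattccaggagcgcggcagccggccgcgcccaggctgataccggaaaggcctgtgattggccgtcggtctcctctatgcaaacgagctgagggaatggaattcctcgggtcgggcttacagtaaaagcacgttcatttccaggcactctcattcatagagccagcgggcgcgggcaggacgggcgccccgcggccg
The distal window had 45% GC and 2 CpG, and the proximal window 69% GC and 35 CpG, against medians of 52.7% and 7 over 32851 mouse promoters. The distal window held 2 RUNX motif matches, at bases 29 and 37 after the start, and the proximal window held none. The same pair, with first bases 8 apart and in the same orientation, lay at bases 24 and 32 after the Runx2 start and 134 and 126 bases before the upstream Runx3 start. These 24-base stretches are printed because all 3 RUNX genes share the motif pair and the bases between the matches. Runx1 and Runx2 also share the bases before the pair and differ only in the last bases of the stretch. The Runx3 stretch differs from both on either side of the pair.
Runx1: aaacaACCACAgaACCACAagttg
Runx2: aaacaACCACAgaACCACAagtgc
Runx3: cctcaACCACAgaACCACAaggcc
A single TGTGGT occurred in 16.8% of all promoters. A pair with first bases at most 12 apart occurred in 56 of 32851, or 0.170%, and a pair exactly 8 bases apart in 20, or 0.0609%. The spacing of 8 is the one seen at the RUNX genes, so its rarity is not independent of them. A match is a description of the letters and not a measured binding site. GATAA, the core of the GATA motif, matched neither Runx1 window and occurs in 25.4% of promoters.

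In mm10 coordinates, Hhex lies on chromosome 19 (37434810 to 37440731), Ikzf1 on chromosome 11 (11685003 to 11772926), Runx1 on chromosome 16 (92601466 to 92826149) and Cbfb on chromosome 8 (105170674 to 105217989). Myb lies on chromosome 10 (21124935 to 21160984) and Meis1 on chromosome 11 (18879817 to 19018985). Runx2 lies on chromosome 17 (44495987 to 44814797), Runx3 on chromosome 4 (135120652 to 135177990), Cebpa on chromosome 7 (35119293 to 35121928) and Mecom on chromosome 3 (29951296 to 30548008). Of these 10 protein-coding genes, 6 were detected, defined as at least 1 TPM (an abundance corrected for transcript length and library size) in both libraries. Hhex reached 433 TPM in replicate 1, 335 TPM in replicate 2 and 384 ± 69.3 TPM on average (SD, n = 2), and ranked 351 among 21474 protein-coding genes. Ikzf1 had 219 and 277 TPM in replicates 1 and 2, a mean of 248 ± 41.4 (SD, n = 2) and rank 583. Runx1 had 228 and 211 TPM, a mean of 220 ± 12.2 (SD, n = 2) and rank 668. These 3 genes formed a high tier, in which Hhex was above the others in both libraries, while the ranges of Ikzf1 and Runx1 overlapped. The values rest on 42872 and 24951 counts for Hhex, 19637 and 16436 for Ikzf1 and 28462 and 19799 for Runx1 in replicates 1 and 2. The Ikzf1 level was 0.957 times that of Runx1 in replicate 1 and 1.31 times in replicate 2. In counts Ikzf1 was below Runx1 in both libraries, so their order by TPM depends on the effective length taken for each gene. That length was 1492 and 1319 bases for Ikzf1 and 2069 and 2084 bases for Runx1 in replicates 1 and 2.

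A middle tier held Myb and Cbfb. Myb had 43.1 and 34.0 TPM in replicates 1 and 2, a mean of 38.6 ± 6.44 (SD, n = 2) and rank 2955. Cbfb had 33.0 and 23.7 TPM, a mean of 28.4 ± 6.55 (SD, n = 2) and rank 3546. The counts were 8986 and 5275 for Myb and 4706 and 2596 for Cbfb. Their ranges did not overlap, by a small margin, and within each library Myb was 1.31 and 1.43 times Cbfb. Meis1 was lowest of the detected genes, at 4.10 and 3.87 TPM, a mean of 3.99 ± 0.163 (SD, n = 2) and rank 7055. Across the list, the median was 16.2 TPM, beside 0.025 TPM for all protein-coding genes and 20.5 TPM for the 8376 of them (39.0%) that reached 1 TPM in both libraries.

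**Figure D1:**
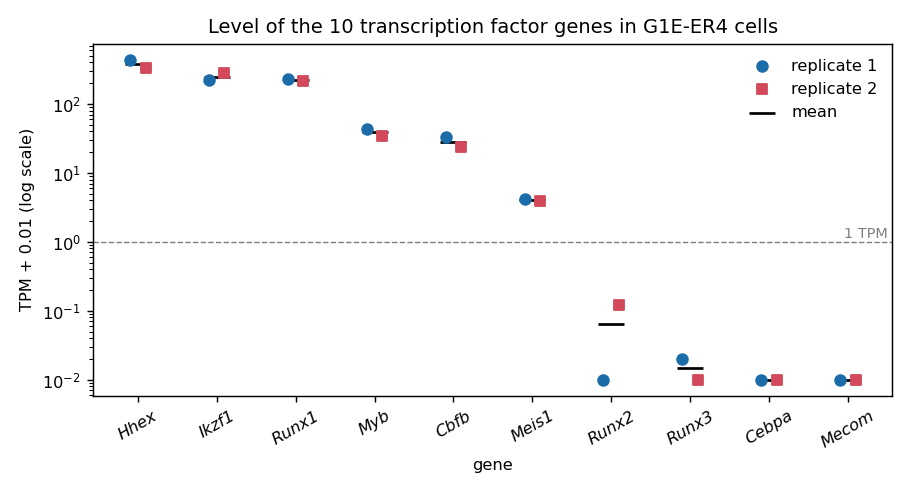
TPM plus 0.01 on a log axis for each of the 10 genes, with circles for replicate 1, squares for replicate 2 and bars for the mean. Hhex, Ikzf1 and Runx1 lie above 200 TPM, and Runx2, Runx3, Cebpa and Mecom lie below the dashed line at 1 TPM.

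The undetected genes were at or near 0 counts. Cebpa and Mecom had 0 counts in both libraries, and 3 counts would have been 0.0201 and 0.0268 TPM for Cebpa and 0.0195 and 0.0260 TPM for Mecom in replicates 1 and 2. Runx2 had 0 counts in replicate 1 and 2 in replicate 2, and Runx3 had 1 and 0. Both Runx2 counts were assigned to a retained-intron model, Runx2-208. Supt3, which overlaps Runx2 on the opposite strand, stood at 11.03 and 10.06 TPM, and the sources used here do not say whether strand entered the counting. No other gene that overlaps a described gene exceeded 0.08 TPM in either library.

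Runx1 supplied nearly all RUNX transcripts. Its counts were 28462 of 28463 RUNX counts in replicate 1 (exact Clopper-Pearson 95% interval 99.98% to 100%) and 19799 of 19801 in replicate 2 (99.964% to 99.999%). The share of RUNX TPM was 99.996% and 99.948%, a mean of 99.97% ± 0.0337 (SD, n = 2). Where a paralog had 0 counts it was set to a floor of 3 counts per library. Runx1 TPM was 9510 times this floor for Runx2 in replicate 1 and 3301 times that for Runx3 in replicate 2. These ratios are not lower bounds, since the floor in TPM depends on the effective length taken for the paralog. For Runx2 that length was 2073.7 bases in replicate 1 and 410.8 in replicate 2. By posterior mean TPM, a second estimate, Runx1 stood at 225 beside 0.27 for Runx2 in replicate 1. In replicate 2 it stood at 208 beside 0.57 for Runx3. Where a paralog had counts, the Runx1 TPM was 1951 times that of Runx2 in replicate 2 (2 counts, exact Poisson 95% interval of the ratio 540.2 to 16112). It was 23336 times that of Runx3 in replicate 1 (1 count, interval 4188 to 921740). These intervals hold counting error alone, as PCR reads are not independent molecules. Against its partner, the Runx1 level was 6.92 times that of Cbfb in replicate 1 and 8.90 times in replicate 2.

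The other families were divided differently. Myb made up 24.1% of MYB family TPM in each library, and Mybl2, the cell cycle paralog, made up 75.2% at 135 and 106 TPM. Mybl1, known for the germ line, had 1.27 and 0.85 TPM. Ikzf1 held 94.9% and 94.7% of the Ikaros family, followed by Ikzf5 at 8.60 and 11.1 TPM and Ikzf4 at 2.72 and 3.67 TPM; Ikzf2 (Helios) had 0.44 and 0.74 TPM and Ikzf3 (Aiolos) was at 0. In the CEBP family Cebpa was at 0, while Cebpb stood at 82.9 and 69.3 TPM, the stress-induced Ddit3 at 53.3 and 72.9 TPM and Cebpg at 35.4 and 33.0 TPM. The granulocyte factor Cebpe was at 0 counts in both libraries.

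Meis1 was below its relative Pknox1 in both libraries. Pknox1 (PREP1) had 7.49 and 6.52 TPM, so that Meis1 held 35.4% and 37.2% of the summed level in replicates 1 and 2, and Meis2, Meis3 and Pknox2 were at 0. Among PBX partners, Pbx2 stood at 185 and 129 TPM, Pbx3 at 12.8 and 18.5 TPM and Pbx4 at 3.42 and 4.10 TPM. None of 8 HOXA and HOXB genes was detected: 5 had 0 counts in both libraries and the highest, Hoxb6, had 0.11 and 0.02 TPM. Mecom and its closest paralog Prdm16 were both at 0, whereas Prdm1 (BLIMP1) had 7.32 and 7.42 TPM and Prdm2 9.02 and 6.75 TPM. Over the 22 paralogs, 13 were detected, 6 had no counts in either library and the median was 5.38 TPM.

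**Figure D2:**
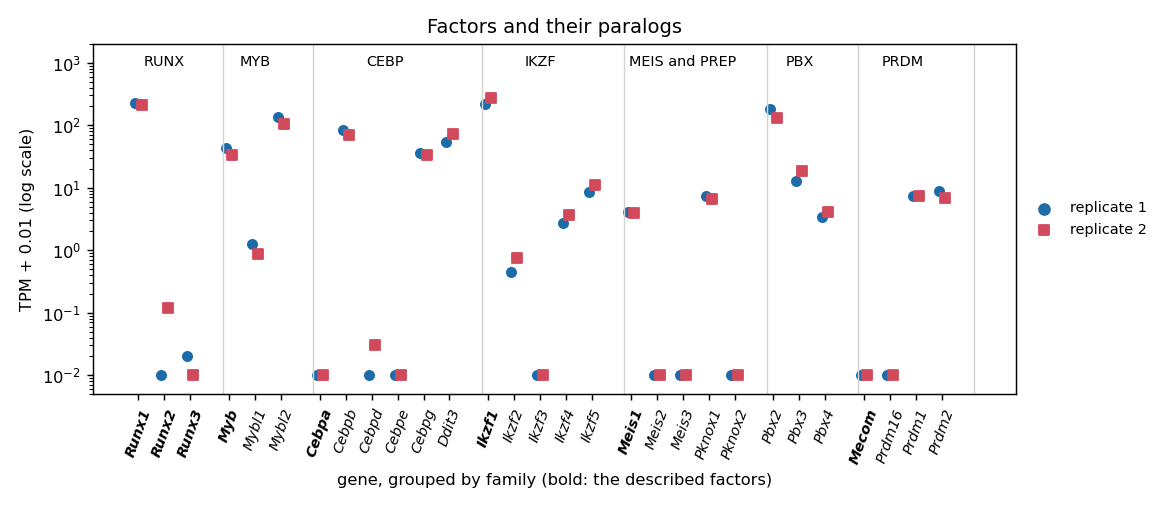
TPM plus 0.01 on a log axis for the described genes (bold) and their paralogs, grouped by family, with circles for replicate 1 and squares for replicate 2. Runx1 and Ikzf1 lead their families, Mybl2 lies above Myb, and Cebpa and Mecom are at 0 while relatives are expressed.

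The transcript tables give each model's share of its gene's TPM. Model structures here are from M21, while the tables used M4; lengths agreed for 6 of 7 Runx1 models, 6 of 7 Cbfb models, 6 of 6 Ikzf1 models, 9 of 9 Meis1 models and 1 of 3 Myb models. Runx1-203 took 92.11% of Runx1 TPM in replicate 1 and 91.67% in replicate 2. Runx1-202 took 4.93% and 6.64%, and Runx1-201, from the distal start, 2.80% and 1.62%. All models of the distal start together held 2.94% and 1.67%, a mean of 2.30% ± 0.901 (SD, n = 2), against the proximal models that held the rest. By estimated counts, which are not divided by length, the distal share was 7.76% and 4.50%, higher than by TPM but still the minor part in both libraries. Runx1-203 starts 1203 bases inside the first exon of Runx1-202, so both lie behind the proximal promoter. The models also differ at the 3' end, where Runx1-201 runs 3932 bases and Runx1-202 1742 bases beyond Runx1-203. The shares by start therefore also hold a difference in 3' end, and the contributions of start and end were not separated.

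**Figure D3:**
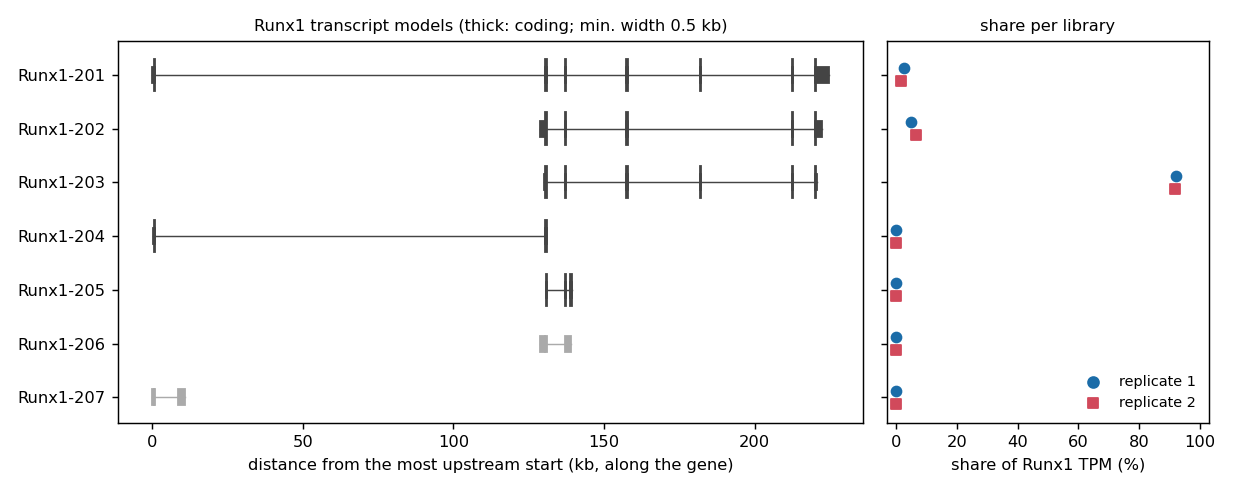
Left, exons of the 7 Runx1 models along the gene, in kb from the most upstream start, thick where coding; right, the share of Runx1 TPM in percent, with circles for replicate 1 and squares for replicate 2. Runx1-203, from the proximal start, holds about 92% in both libraries.

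Runx1-202 lacks a coding exon of 192 bases (64 codons, mm10 chromosome 16, 92644154 to 92644345), printed here because it is the main coding difference among the proximal models.
Runx1 exon: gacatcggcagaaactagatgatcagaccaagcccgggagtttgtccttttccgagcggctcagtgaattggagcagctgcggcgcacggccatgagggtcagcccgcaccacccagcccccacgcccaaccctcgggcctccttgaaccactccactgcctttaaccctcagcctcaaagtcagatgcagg
Models with the exon held 95.1% and 93.4% of the TPM of models that could carry it in replicates 1 and 2, a mean of 94.2% ± 1.21 (SD, n = 2), and 89.1% and 85.4% of their counts. Runx1-202 also holds 2945 bases that Runx1-203 lacks, beside the 192 bases of the exon. These shares therefore rest on the ends of the models as well as on the exon, and use of the exon alone was not measured. The 3 models encode 465 (Runx1-201), 387 (Runx1-202) and 451 codons (Runx1-203).

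Ikzf1 was the gene whose leading model differed between the libraries. Ikzf1-202 led in replicate 1, with 40.28% against 28.20% in replicate 2, and Ikzf1-201 led in replicate 2, with 51.75% against 39.61% in replicate 1. Ikzf1-203, the longest reading frame, held 13.38% and 7.74%. Ikaros binds DNA with zinc fingers near its first end and dimerizes through fingers near its last. A search of the reading frames for the C2H2 finger pattern found 6 in Ikzf1-203 and Ikzf1-204, 5 in Ikzf1-201 and 3 in Ikzf1-202, which ends before the exon for the last 2. Ikzf1-201 lacks the first finger because it skips an exon of 261 bases (87 codons, mm10 chromosome 11, 11748311 to 11748571), shown with the finger's bases in capitals.
Ikzf1 exon: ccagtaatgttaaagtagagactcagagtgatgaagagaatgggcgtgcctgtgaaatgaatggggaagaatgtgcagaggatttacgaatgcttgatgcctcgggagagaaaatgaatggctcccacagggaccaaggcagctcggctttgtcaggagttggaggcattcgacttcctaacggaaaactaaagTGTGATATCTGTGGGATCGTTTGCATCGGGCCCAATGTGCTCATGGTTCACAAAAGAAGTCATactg
Models with this exon held 14.6% and 9.09% of the TPM of Ikzf1-201 to Ikzf1-204 in replicates 1 and 2 but 42.3% and 28.0% of their counts, so that its weight depends on the scale. Ikzf1-203 is 4697 bases long, against 1542 for Ikzf1-201 and 911 for Ikzf1-202. Ikzf1-206, a fragment of 242 bases, was at 0 in replicate 1 and took 9.61% in replicate 2 from 114 counts. On both scales most Ikzf1 signal was assigned to models without the first finger. Ikzf1-201 has 0 bases outside Ikzf1-203, which holds 3155 more and ends 2314 bases further on. The split between these models therefore rests on their ends as well as on the exon, and use of the exon alone was not measured.

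Cbfb was spread over 3 main coding models in similar proportions in both libraries. Cbfb-204 held 41.82% and 41.67%, Cbfb-202 27.47% and 30.40%, and Cbfb-201 19.66% and 18.84% in replicates 1 and 2. Cbfb-204 (155 codons) skips an exon of 96 bases, Cbfb-201 (187 codons) carries it, and Cbfb-202 (182 codons) carries a form of 127 bases that uses a later splice site. The longer form is printed with its 31 added bases in capitals, since it holds both versions (mm10 chromosome 8, 105202452 to 105202578).
Cbfb exon: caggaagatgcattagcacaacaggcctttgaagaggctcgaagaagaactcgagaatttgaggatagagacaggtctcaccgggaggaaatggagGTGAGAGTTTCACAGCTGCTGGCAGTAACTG
Each form was set against the skipping model Cbfb-204 alone. Models with the short form held 32.1% and 31.4% of the TPM summed with Cbfb-204, and Cbfb-202, in a separate sum with Cbfb-204, held 39.6% and 42.2%. Cbfb-202 in M21 differs by 55 bases in length from the model in the files. The 117-base exon upstream, which Cbfb-203 skips, was in models with 99.9% and 99.8% of the TPM of Cbfb-201 to Cbfb-204.

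Myb and Meis1 each had a mixed picture. Myb-203 (755 codons), which includes an exon of 357 bases, held 89.23% and 92.80% of Myb TPM in replicates 1 and 2. Myb-201 (636 codons, without the exon) took the other 10.77% in replicate 1 and 0% in replicate 2, where Myb-202, a retained-intron model, took 7.20%. For Meis1, Meis1-202, annotated as a target of nonsense-mediated decay, held 61.82% and 48.08%, and all models of that class 65.4% and 62.3%. Meis1-207, of the same class, held 3.65% and 14.11%. Meis1-201 (390 codons) held 27.82% and 35.91%, and Meis1-209 (465 codons) 0.90% and 0.83%. The Meis1 shares rest on 729 and 487 counts. Hhex was read from 1 model, Hhex-201, at 100% and 99.99%.

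**Figure D4:**
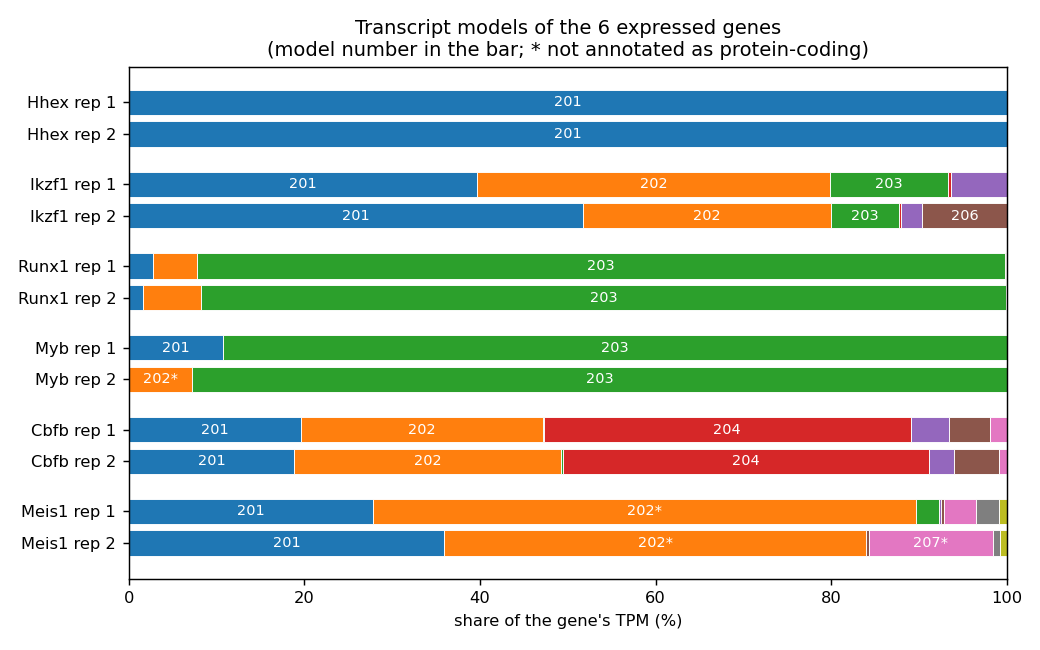
Share of each gene's TPM (percent) by transcript model for the 6 detected genes, one bar per library, with model numbers and asterisks for models not annotated as protein-coding. The leading Ikzf1 model differs between the bars, while Runx1, Hhex and Cbfb bars nearly match.

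Most genes listed as cofactors of these factors were detected. Of all protein-coding genes, 39.0% reached 1 TPM in both libraries. Of 21 RUNX and CBFB cofactors, 19 were detected, and the list's median was 21.2 TPM. The highest were Aes at 2080 and 1758 TPM, the chromatin remodelling ATPase Smarca4 at 287 and 261 TPM, and the corepressor Cbfa2t3 at 259 and 248 TPM in replicates 1 and 2. Of 13 cofactors of MECOM, IKZF1, MYB and HHEX, 12 were detected. Their list had a median of 81.4 TPM and was led by the histone methyltransferase Ehmt2 at 450 and 356 TPM, Chd3 at 333 and 283 TPM and Ctbp1 at 328 and 256 TPM. Chd4, the remodelling ATPase of the NuRD complex that Ikaros recruits, had 231 and 197 TPM. Genes known as RUNX1, MYB or CEBPA targets split: 6 of 13 were detected and the list's median was 0.175 TPM. The highest were Myc at 686 and 839 TPM, Kit at 53.6 and 55.3 TPM and Spi1 at 51.2 and 33.6 TPM. Csf1r, Csf3r, Elane and Mpo, which also stand in the list of granulocyte and macrophage markers, summed to at most 0.31 TPM in either library.

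Cell type markers were checked against the label. All 6 erythroid markers were detected, led by Hba-a1 at 6746 and 8936 TPM, Hbb-bs at 7940 and 7235 TPM and Gata1, whose transgene and own locus are not separated, at 1498 and 2430 TPM. No marker of granulocytes and macrophages (0 of 6), T cells (0 of 4), B cells (0 of 3), osteoblasts (0 of 4) or endothelium (0 of 3) was detected, with summed levels of at most 0.39 TPM per list. The 3 megakaryocyte markers summed to 1.27 and 2.11 TPM in replicates 1 and 2, with Pf4 at 0.74 and 1.11 TPM, Gp9 at 0.53 and 1.00 TPM and Ppbp at 0. Itga2b (CD41), a gene of megakaryocytes and early progenitors that stood in the target list, had 18.2 and 29.3 TPM.

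Between the libraries, the 6 detected genes differed by no more than 1.39-fold in TPM. Counts were scaled by TMM and compared by an exact two-sided binomial test adjusted by Benjamini-Hochberg, which holds counting error alone. Of the 6 genes with enough counts, 4 were called, against a background of 69.1% of 10863 genes, so a call is the common outcome at this depth. Hhex was 1.20 times, Cbfb 1.27 times and Myb 1.19 times as high in replicate 1 as in replicate 2, with adjusted p of 1.462e-119, 2.9975e-22 and 7.2555e-24; 34.4% of genes were called higher in replicate 1. Ikzf1 was 1.20 times as high in replicate 2 as in replicate 1, with adjusted p = 9.4231e-63, in a background of 34.7% called higher there. Runx1 had a log2 ratio of 0.01 with adjusted p = 0.56, and Meis1 a log2 ratio of 0.07 with adjusted p = 0.496. The median absolute log2 ratio over all genes tested was 0.30. With a coefficient of variation of 0.1 added to the counting error, 0 of the 6 were called, and 18.8% of all genes remained. Since 2 libraries of 1 group define no pattern across conditions, no gene was named for likeness of pattern.

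**Figure D5:**
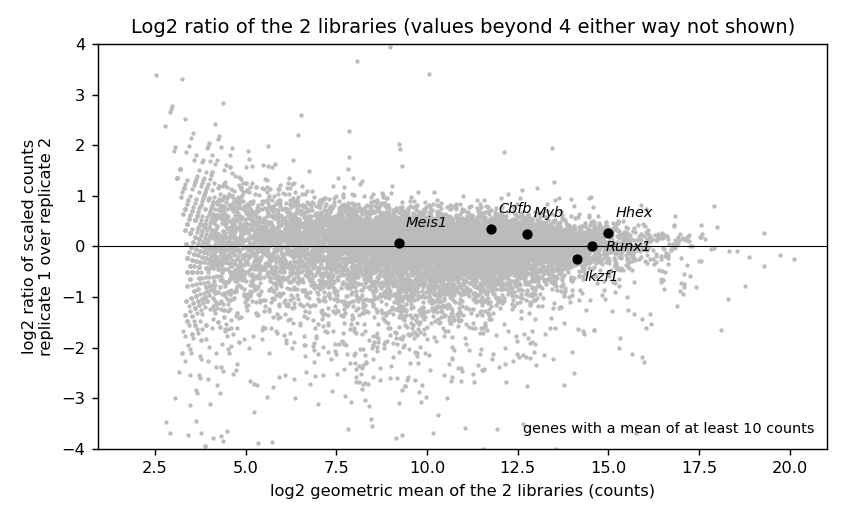
Log2 ratio of scaled counts (replicate 1 over replicate 2) against the log2 geometric mean count for genes whose mean count was 10 or more in grey and the 6 detected described genes in black. Hhex, Cbfb and Myb lie above 0, Ikzf1 below, and Runx1 at 0.01.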

How the data were processed

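Expected counts, a form of estimated count that can hold fractions, were made by the authors and deposited per gene and transcript, per the file headers. TPM, FPKM and the isoform share, a percent of the gene's TPM, were also deposited by the authors, per the file headers, as were posterior mean counts and TPM. FPKM was not used for results. Per the readme files, annotation M4 of GENCODE on mm10 was used; aligner, quantifier and strand setting: not given in the sources used here. Names, classes and models came from GENCODE M21 and promoters from RefSeq GRCm38.p6, by identifier or symbol. Of 69691 features, 26248 numeric rows and 97 spike-ins were left out and held 0 and 1 count. The members and lists were chosen with earlier results of these data known. All 10 genes were named, then the 3 highest genes of each list with a detected gene and paralogs of each family, while other lists are given by sums; transcripts were named from 10% of a gene's TPM. Chd4, Hoxb6, Itga2b, the megakaryocyte markers, undetected target genes and low transcripts were named after their values were seen. 2 listed symbols, Tle5 (a later name of Aes) and Prmt1, found no match, and a few genes of the lists were left out and are not reported here.

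For tests, expected counts were rounded to whole numbers. Scaling was TMM in edgeR 4.0.16 (R 4.3.3) for genes whose mean count was 10 or more, and the exact binomial test was run in scipy 1.17.1 and tested on simulated data. A count of 3 was the floor. The alternative with an added coefficient of variation of 0.1 used edgeR's negative binomial exact test conditional on the sum. Starts within 1000 bases formed 1 start. Other alternatives were DESeq2 1.42.0 size factors, library totals, other count and TPM minimums, posterior means, TPM without globin and mitochondrial genes, and each library alone; the distal Runx1 share by estimated counts, and the Runx1 to Cbfb ratio and coding exon shares with their alternatives, were chosen after seeing the data. The depth of 68901065 and 51923117 counts leaves the spread between libraries larger than counting error for abundant genes.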

Additional observations from a re-analysis of the deposited data

How the results depend on the processing

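A value was taken to move when it changed by 1 SD of the 2 libraries or more, and a count of genes when it changed by over 1.5 times. With 2 libraries, leaving 1 out cannot pass that SD by construction, so those values say nothing of stability. By this measure 46 alternatives of the main comparisons did not move, 8 moved and 0 reversed. For mean TPM of single genes 36 did not move and 4 did, those of the undetected genes by posterior mean TPM. Both counts of alternatives that did not move include the runs with 1 library left out, so they overstate stability. With a coefficient of variation of 0.1 added, the number of genes called different between libraries was 0, where the added spread by construction widens the test. Library totals in place of TMM called 5 genes, adding Runx1 with an adjusted p of 1.484e-17 in the binomial test; its adjusted p was between 0.0669 and 0.971 under the other scalings and filters, apart from the added spread. By posterior mean TPM the Runx1 share of RUNX was 99.59%; the cause was not tested. By estimated counts, in which long models weigh more by construction, the distal Runx1 share was 6.13%, the share with the 192-base Runx1 exon 87.2%, with the 60-base Ikzf1 exon 34.1% and with the 261-base Ikzf1 exon 35.2%. The 96-base Cbfb exon share was 32.4% by posterior mean TPM and 33.2% by estimated counts, and the cause was not tested. With a minimum of 5 TPM, 5 genes were detected, without Meis1. Leaving out 1 library gave a distal Runx1 share of 1.67% to 2.94% and a Runx1 to Cbfb ratio of 6.92 to 8.90. No paired analysis was possible because the 2 libraries form 1 group. At this depth 3 counts are worth at most 0.162 TPM for the undetected genes, under the minimum of 1 TPM. These genes had at most 2 counts and 0.11 TPM in a library, and 6 genes were also detected with a minimum of 0.5 TPM.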

Other observations

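The posterior mean TPM, a second estimate in the files, was above 0 for genes without counts. Mecom, with 0 counts in both libraries and 17 transcript models, was given 0.24 TPM (replicate 1) and 0.31 TPM (replicate 2). Runx3, with 1 and 0 counts and 6 models, had 0.48 and 0.57 TPM, and Runx2, with 0 and 2 counts and 13 models, had 0.27 and 0.45 TPM. Cebpa, with 0 counts and 1 model, had 0.01 TPM in both. All 4 genes stayed below 1 TPM by either estimate.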
